A study of Mus musculus with 39 samples.

Results

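The 39 genes described here are the parts of skeletal muscle that contract and the enzymes that supply them: 11 genes of fast fibres, 8 of slow fibres, 6 sarcomere genes used by all fibres, 8 genes of calcium handling and 6 genes of energy supply. They were taken by gene symbol from the 29411 gene names on the array, and each was read from its brightest probe. The arrays did not come from muscle. They hold RNA of subcutaneous adipose tissue of C57BL/6J mice, 39 samples with 1 Agilent array each, and the question put to them is on which arrays muscle RNA was present and from which type of fibre.

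Mice weaned at 3 to 4 weeks of age were placed in 5 groups of 30. The LFC group (10 arrays) received a diet with 10% of its calories from fat, and the HFC group (11 arrays) a high fat, high sucrose diet with 60% of its calories from fat. The HF5, HF20 and HF75 groups (6 arrays each) received the high fat diet with 5, 20 or 75 µg of the botanical formulation KAL-1. LFC and HFC were measured on Day 6, 10 and 14 and at intervals of 3 weeks between Week 0 and Week 18, HFC also on Day 1, and the KAL-1 groups at the 6 time points after Week 0. The labels state that 5 animals per group were killed every 3 weeks, and the design text speaks of 3 biological replicates, but 1 array per diet and time point was analysed here and the number of mice behind an array is not given in the sources used here. Every p-value therefore measures the spread between arrays of different time points.

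A muscle fibre shortens when myosin heavy chains pull on actin, and the troponins on the actin filament make this depend on calcium released from the sarcoplasmic reticulum through the ryanodine receptor and pumped back by a calcium ATPase. Fast fibres use the heavy chains IIb, IIx and IIa (Myh4, Myh1, Myh2) with their own light chains and troponins and live largely on glycogen and creatine phosphate, while slow fibres use the heavy chain encoded by Myh7 with slow troponins and rely on myoglobin and mitochondria. White and beige adipocytes have no sarcomeres. The source of muscle RNA in these samples was not tested.

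The windows before the start sites were searched for letters that muscle transcription factors are known to bind, and 6 windows from 4 of the 5 role groups are printed, chosen after the search because each holds a CArG box or a MEF2 site, as did those of 10 of the 30 members with a window. Of the 39 members, 30 had a window of 250 bases before a start site in the RefSeq annotation of GRCm38.p6, with 37 windows in all. In each sequence, written 5′ to 3′ on the strand of the gene, capitals mark a CArG box (bound by serum response factor), a MEF2 site, an E-box CANNTG (bound by MyoD and its relatives) or the letters TATAAA or TTTATA, a core promoter element.
Acta1 (chr8:123894776-123895025, minus strand): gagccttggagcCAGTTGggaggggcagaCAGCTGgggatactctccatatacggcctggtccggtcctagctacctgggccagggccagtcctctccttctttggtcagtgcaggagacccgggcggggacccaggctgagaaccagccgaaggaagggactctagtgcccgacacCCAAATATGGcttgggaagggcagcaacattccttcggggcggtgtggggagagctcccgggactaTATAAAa
Myh4 (chr11:67237562-67237811, plus strand): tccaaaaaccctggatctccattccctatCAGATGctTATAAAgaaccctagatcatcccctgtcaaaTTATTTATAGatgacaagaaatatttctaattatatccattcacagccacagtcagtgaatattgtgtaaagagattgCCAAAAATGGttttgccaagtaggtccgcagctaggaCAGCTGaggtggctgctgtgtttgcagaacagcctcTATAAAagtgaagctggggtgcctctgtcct
Myh1 (chr11:67199852-67200101, plus strand): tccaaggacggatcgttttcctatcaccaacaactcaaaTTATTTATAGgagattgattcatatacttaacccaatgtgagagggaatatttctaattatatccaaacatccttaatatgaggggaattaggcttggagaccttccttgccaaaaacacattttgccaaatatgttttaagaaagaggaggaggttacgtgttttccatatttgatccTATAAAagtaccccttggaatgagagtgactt
Myl3 (chr9:110763428-110763677, plus strand): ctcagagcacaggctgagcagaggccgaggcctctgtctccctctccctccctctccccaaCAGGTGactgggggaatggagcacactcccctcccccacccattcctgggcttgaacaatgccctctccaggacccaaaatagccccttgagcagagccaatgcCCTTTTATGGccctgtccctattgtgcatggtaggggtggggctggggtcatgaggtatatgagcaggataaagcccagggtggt
Myoz2 (chr3:123034988-123035237, minus strand): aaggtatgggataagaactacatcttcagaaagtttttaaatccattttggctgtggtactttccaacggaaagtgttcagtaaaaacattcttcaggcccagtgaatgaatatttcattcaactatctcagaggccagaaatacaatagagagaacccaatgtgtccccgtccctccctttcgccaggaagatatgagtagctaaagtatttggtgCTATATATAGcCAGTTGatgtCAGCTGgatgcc
Pgam2 (chr11:5803797-5804046, minus strand): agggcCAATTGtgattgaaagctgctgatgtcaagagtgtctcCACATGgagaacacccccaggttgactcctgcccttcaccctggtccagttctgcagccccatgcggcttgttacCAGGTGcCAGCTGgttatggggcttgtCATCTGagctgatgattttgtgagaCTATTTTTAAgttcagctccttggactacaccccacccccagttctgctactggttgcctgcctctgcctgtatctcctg
Both strands were searched, and in the Myh4 and the Myh1 window 1 pair of these motifs overlaps, the MEF2 site with TTTATA. A CArG box was present in 13.5% of the 37 member windows and in 1.47% of all 32851 windows of the same length. The MEF2 site was present in 18.9% of the member windows and in 2.92% of all windows. CANNTG was found in 83.8% against 66.2%, and TATAAA or TTTATA in 16.2% against 12.4%. Myh4 held all 4 kinds of match, with its CArG box 104 to 95 bases and its MEF2 site 182 to 173 bases before the start. A match is a description of the letters only.

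Levels are given throughout as log2 of the processed signal minus log2 of the 75th percentile of the array, so 0 is a bright probe and each unit is a doubling. Probes differ in brightness for reasons of their own, so genes are compared with each other only as deviations, the level minus that gene's median over the 39 arrays. The 75th percentile ran from 107.9 to 1285.3 signal units, 49.3% to 87.8% of spots were well above background, and the number of arrays limits the precision. A spot at the top of the scanner's range is called saturated and its level is a lower bound, while levels of a spot not well above background have no order among themselves. Myl2 and Myoz2 were well above background on 17 and 19 of the 39 arrays, so their medians are background levels. On the array labelled HF20 at Week 15, 9 members had no level because their spots were marked as outliers. At Week 12 the labels and the series' own value table disagreed: the HF5 column correlated at 0.999 with the array labelled HF20 and at 0.663 with its own, and the HF20 column at 0.999 with the array labelled HF5 and at 0.666 with its own, while 26 other columns correlated at 0.990 to 1.000 with their own array. The HFC column of Day 1 was not checked, as no LFC array of that day was analysed. These 2 samples are called here the arrays labelled HF5 and HF20 at Week 12, and the comparisons of HF5 and HF20 with HFC are also given with the labels exchanged. The ranges by diet below are as labelled: for each of the 20 members given by diet, the array labelled HF5 at Week 12 had the highest HF5 level, and with the labels exchanged it would have the highest HF20 level. Adiponectin (Adipoq), the defining secreted protein of adipocytes, was well above background on all 39 arrays.

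Muscle RNA was unevenly spread over the arrays. The mean deviation of the 39 members was 8.59 on the HF75 array of Week 3 and 7.09 on the HFC array of Day 1. It was 5.54 on the array labelled HF5 at Week 12, 4.78 on the HFC array of Day 6 and 4.10 on the LFC array of Day 6. These 5 arrays came from 4 different diets, and on each of them all 39 members were well above background. The HFC array of Day 10 (2.41), the HF20 array of Week 18 (2.08), the LFC array of Day 10 (1.32), the LFC array of Week 9 (1.20) and the HF20 array of Week 9 (1.03) followed. The other 29 arrays lay between -2.43 and 0.75, and the lowest were the HFC arrays of Week 6 (-2.43), Week 9 (-2.32) and Week 3 (-2.21).

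On the leading arrays nearly the whole set was high. All 39 members lay more than 2 log2 units above their own median on the HF75 array of Week 3, and all 36 members with a level did so on the HFC array of Day 1. The number was 37 on the array labelled HF5 at Week 12, 36 on the LFC array of Day 6, 33 on the HFC array of Day 6, 28 on the HFC array of Day 10 and 21 on the HF20 array of Week 18. Saturation held these values down: 23 members were saturated on the HF75 array of Week 3, 20 on the HFC array of Day 1, 10 on the array labelled HF5 at Week 12, 6 on the HFC array of Day 6 and 4 on the LFC array of Day 6. Each member had its highest level on 1 of the first 2 of these arrays, and the scanner's limit left the order of the 2 open for many. Of the 36 members with a level on both, 16 were saturated on both, where the level follows the percentile subtracted, which was 1.24 log2 units higher on the HFC array of Day 1. The order was settled for 18 members, of which 12 were higher on the HF75 array of Week 3 and 6 on the HFC array of Day 1, and the order of the 2 mean deviations is not settled either.

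**Figure D1:**
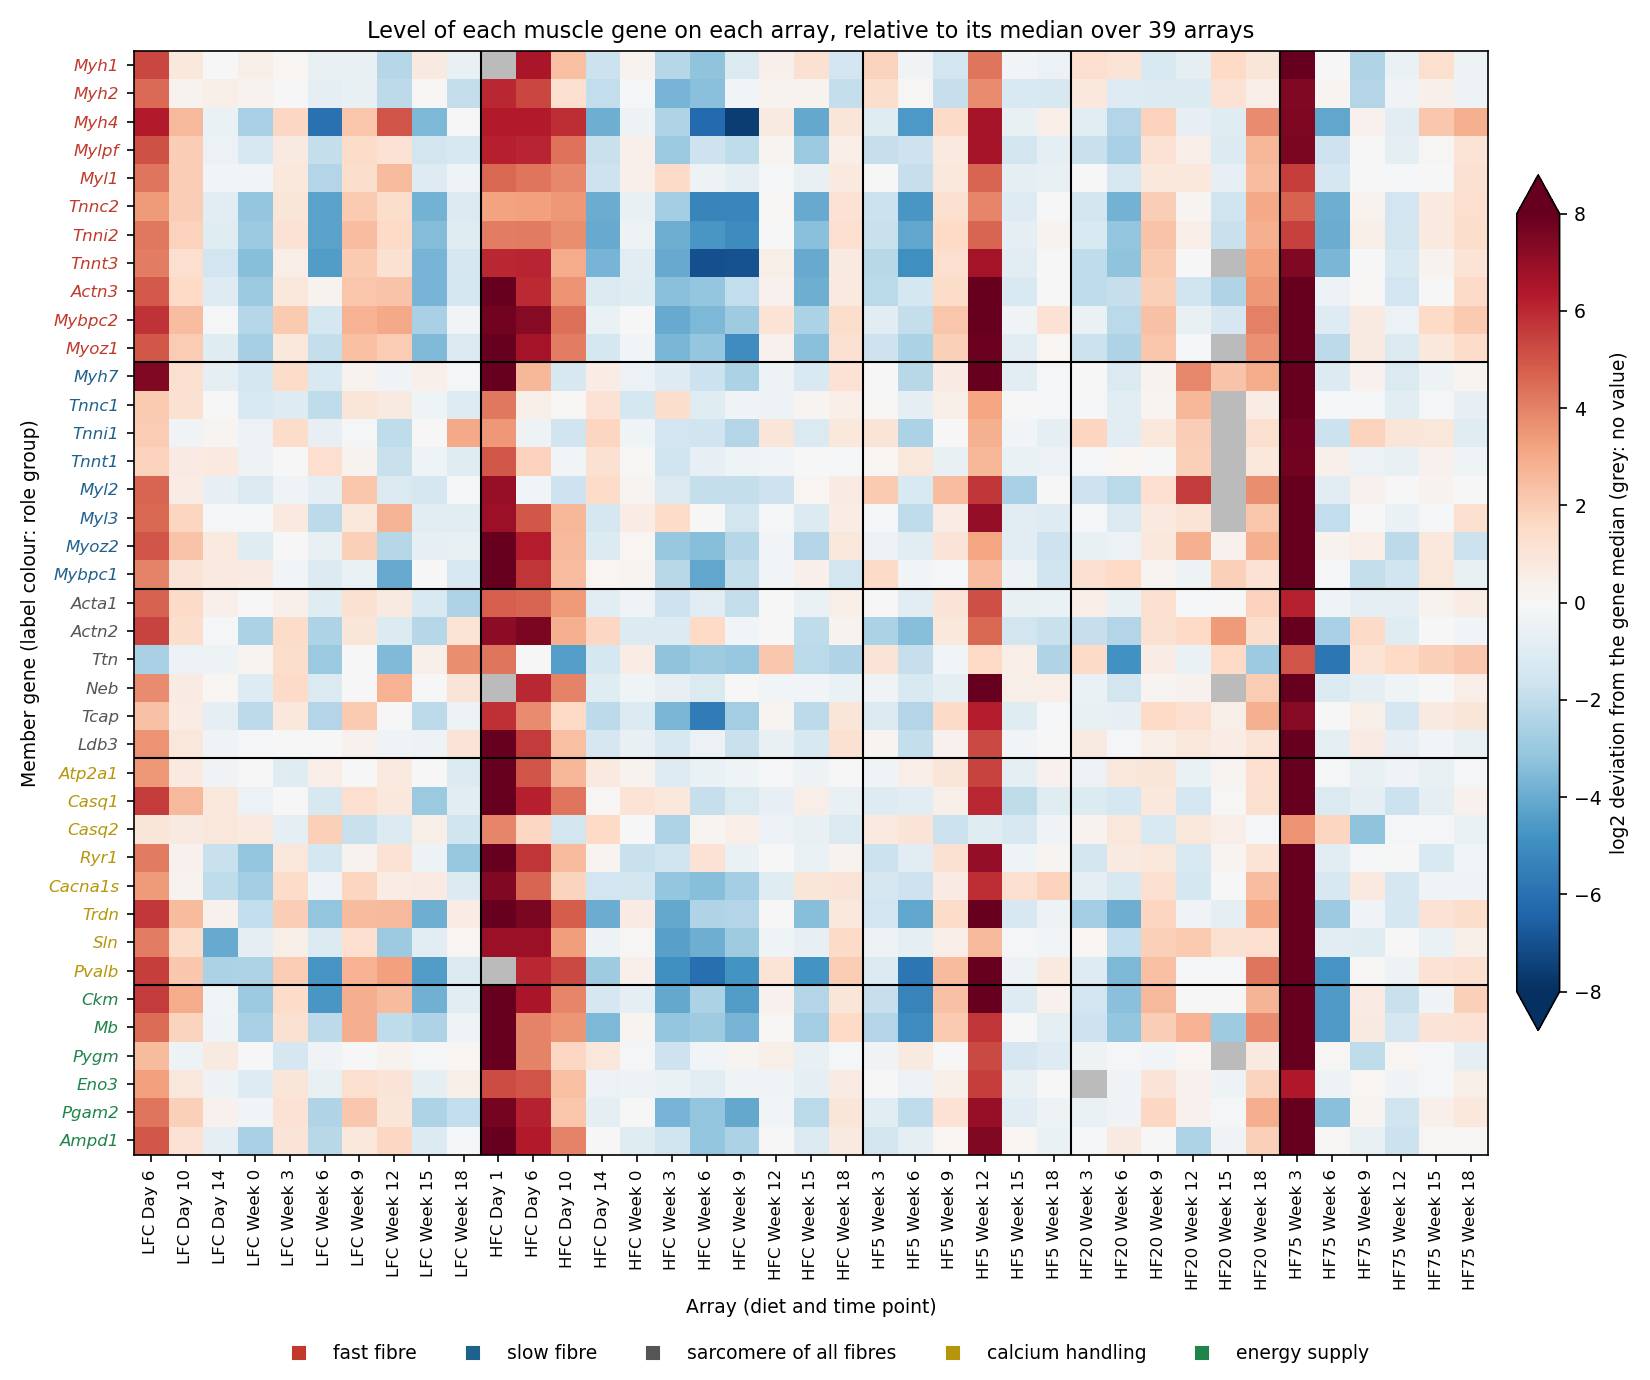
Heat map of the 39 members (rows, in 5 role groups) on the 39 arrays (columns, by diet and time point), coloured by the log2 deviation from the gene's median, with no value in grey and colours capped at 8. The HF75 array of Week 3, where all 39 members were more than 2 above their median, the HFC array of Day 1, the array labelled HF5 at Week 12 and both Day 6 arrays stand out as dark red columns.

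As single genes the members varied far more than most genes of the array. The median SD of a member over the 39 arrays was 2.83, from 1.47 for Casq2 to 4.01 for Trdn, against a median of 0.865 over the 22714 genes well above background on at least 6 arrays. The SD of 35 of the 39 members was above 1.93, the 95th percentile of those genes. Low levels were not absence on every array: 14 members were well above background on all 39 arrays, while Myl2 was so on 17. Fewest members, 23 of 39, were well above background on the HFC array of Week 9.

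The 3 fast myosin heavy chain genes had their highest LFC, HF5 and HF75 levels on the same arrays. Myh4, the IIb chain of the fastest fibres, ran from -6.01 to 6.25 (median 0.76) in LFC, -7.67 to 6.27 (median -0.47) in HFC, -4.65 to 6.60 (median -0.11) in HF5, -2.42 to 3.74 (median -0.86) in HF20 and -4.20 to 7.42 (median 1.18) in HF75. Its highest LFC, HF5 and HF75 levels were those of Day 6, of the array labelled HF5 at Week 12 and of Week 3, and 5 of its levels were saturated. Myh1, the IIx chain, ran from -2.65 to 5.01 (median -0.28) in LFC, -3.61 to 6.16 (median -0.79) in HFC, -1.82 to 3.92 (median -0.62) in HF5, -1.58 to 1.25 (median 0.66) in HF20 and -2.75 to 7.77 (median -0.56) in HF75, with no level on the HFC array of Day 1. Myh2, the IIa chain found in fast oxidative fibres, ran from -2.02 to 4.60 (median 0.14) in LFC, -3.66 to 6.10 (median -0.07) in HFC, -1.79 to 3.86 (median -0.49) in HF5, -1.02 to 1.23 (median -0.17) in HF20 and -2.25 to 7.46 (median 0.01) in HF75. With the labels of Week 12 exchanged, the highest HF20 levels of Myh4, Myh1 and Myh2 were 6.60, 3.92 and 3.86 and the highest HF5 levels 1.46, 1.51 and 1.49. The probes of Myh1, Myh2, Myh4 and Myh7 shared at most 25 of 60 bases without gaps. This compares probe with probe only, and the match of a probe to the transcripts of the other chains was not tested.

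The fast troponins were detected on nearly every array. Tnnc2, the calcium sensor of the fast thin filament, ran from -1.49 to 6.24 (median 2.87) in LFC, -2.48 to 6.30 (median 2.22) in HFC, -1.85 to 6.71 (median 2.28) in HF5, -1.0 to 5.83 (median 2.18) in HF20 and -1.12 to 7.50 (median 3.33) in HF75. Tnni2, the fast inhibitory subunit, ran from -2.21 to 6.29 (median 2.15) in LFC, -2.94 to 6.20 (median 1.67) in HFC, -2.10 to 6.75 (median 1.85) in HF5, -1.02 to 4.91 (median 1.72) in HF20 and -1.87 to 7.55 (median 2.68) in HF75. Tnnt3, which ties the complex to tropomyosin, ran from -4.42 to 4.12 (median -0.36) in LFC, -6.98 to 6.12 (median -0.79) in HFC, -4.85 to 6.70 (median -0.44) in HF5, -3.21 to 3.27 (median 0.04) in HF20 and -3.65 to 7.46 (median 0.17) in HF75, with 1 HF20 array without a level. The first 2 were well above background on all 39 arrays and the third on 37, and each was lowest on a Week 6 or Week 9 array in all 5 diets. The light chains Mylpf and Myl1, the Z-disc protein Actn3, the myosin binding protein Mybpc2 and the calsarcin Myoz1 had their highest levels, 7.43 to 7.60, on the HF75 array of Week 3, where all 11 fast members were saturated.

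On a single array 8 to 11 of the 11 fast members but 2 to 8 of the 8 slow members were well above background. Myh7, the slow heavy chain, ran from -6.51 to 2.32 (median -4.99) in LFC, -7.61 to 4.57 (median -5.58) in HFC, -7.31 to 3.25 (median -5.09) in HF5, -6.22 to -1.22 (median -3.79) in HF20 and -6.23 to 7.58 (median -5.18) in HF75, and it was well above background on 24 arrays. On the HF75 array of Week 3 it was saturated, at least 12.66 above its median. Myl2, the slow regulatory light chain, ran from -7.17 to -1.10 (median -6.28) in LFC, -7.70 to 1.19 (median -5.98) in HFC, -8.35 to -0.05 (median -4.76) in HF5, -7.96 to -0.20 (median -4.44) in HF20 and -6.66 to 5.63 (median -5.63) in HF75. Tnnc1, the troponin C of slow fibres, ran from -6.97 to -2.91 (median -5.14) in LFC, -6.41 to -0.77 (median -4.74) in HFC, -5.79 to -1.79 (median -4.92) in HF5, -5.86 to -2.31 (median -4.76) in HF20 and -5.89 to 3.75 (median -5.10) in HF75, and Tnni1, the slow inhibitory subunit, from -7.24 to -2.16 (median -5.29) in LFC, -7.57 to -1.73 (median -5.65) in HFC, -7.74 to -2.37 (median -5.32) in HF5, -6.11 to -3.23 (median -3.95) in HF20 and -6.96 to 2.59 (median -4.28) in HF75. Like Myl2 and Tnnt1, they had no level on the HF20 array of Week 15. Tnnt1, the slow troponin T, ran from -3.44 to 0.20 (median -1.53) in LFC, -3.27 to 3.30 (median -1.75) in HFC, -2.22 to 1.00 (median -1.81) in HF5, -1.76 to 0.23 (median -1.51) in HF20 and -2.27 to 6.09 (median -1.64) in HF75. The highest HF20 level of Myh7, Tnnc1, Tnni1, Tnnt1 and Myl2 was that of the array labelled HF20 at Week 12, while that of the fast troponins was Week 18. The other slow members did not share this: the highest HF20 level of Myl3 and Myoz2 was also Week 18 and that of Mybpc1 was Week 15. With the labels exchanged the contrast of those slow genes with the fast troponins is gone, since the array labelled HF5 at Week 12 was then the highest for both.

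Sarcomere genes shared by all fibres were high on the same arrays, with the exception of Ttn. Acta1, the actin of the thin filament, ran from -0.96 to 6.19 (median 1.93) in LFC, -0.42 to 6.28 (median 1.25) in HFC, 0.62 to 6.67 (median 1.26) in HF5, 0.93 to 3.36 (median 1.76) in HF20 and 0.71 to 7.67 (median 1.47) in HF75, and it was well above background on all 39 arrays. Neb, which sets the length of that filament, ran from -5.02 to -0.08 (median -3.46) in LFC, -4.99 to 2.15 (median -4.13) in HFC, -5.06 to 5.33 (median -3.76) in HF5, -5.30 to -1.86 (median -3.63) in HF20 and -4.95 to 7.50 (median -4.03) in HF75, with no level on 1 HFC and 1 HF20 array. Actn2, which anchors actin at the Z-disc, ran from -7.40 to 0.59 (median -4.42) in LFC, -6.84 to 2.69 (median -4.55) in HFC, -8.25 to -0.23 (median -6.47) in HF5, -7.16 to -1.40 (median -3.50) in HF20 and -7.41 to 4.91 (median -4.95) in HF75. Neb was 9.19 above its median on the array labelled HF5 at Week 12 and at least 11.36 (saturated) above it on the HF75 array of Week 3, and 3.97 and 6.01 above it on the HFC arrays of Day 10 and Day 6. Ttn, the elastic filament, differed: its brightest probe was 2.59 below its median on the LFC array of Day 6 and 4.39 below it on the HFC array of Day 10. The 8 Ttn probes differed, and on the HF75 array of Week 3 the other 7 were 4.18 to 13.51 above their medians against 5.06 for the brightest. For members of other roles and this one, the r of a further probe with the brightest ran from 0.557 (Cacna1s) to 0.997 (Myh2), Ttn left out. It was 0.566 for Myl3 and 0.739 for Myh1, but 0.994 for Myh4 and 0.980 for Myh7. On the HF75 array of Week 3 the second Myl3 probe was 4.87 above its median, against at least 8.19 (saturated) for the brightest.

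Calcium handling genes were high and low on the same arrays as the fast group, with r = 0.952 between the 2 means over the 39 arrays. Trdn, which holds the release channel and its calcium store together, ran from -8.30 to 1.25 (median -3.14) in LFC, -8.50 to 6.30 (median -4.42) in HFC, -8.55 to 4.55 (median -5.24) in HF5, -8.30 to -1.34 (median -4.93) in HF20 and -7.31 to 7.35 (median -3.98) in HF75, and it was well above background on 23 arrays. Pvalb, the calcium buffer of fast fibres, ran from -7.44 to 2.79 (median -2.27) in LFC, -8.76 to 3.26 (median -3.98) in HFC, -8.53 to 6.21 (median -2.55) in HF5, -6.32 to 1.53 (median -2.86) in HF20 and -7.45 to 7.54 (median -2.13) in HF75, with no level on the HFC array of Day 1. Atp2a1, the pump that returns calcium to the store, ran from -4.38 to 0.17 (median -3.26) in LFC, -4.33 to 6.02 (median -3.33) in HFC, -4.02 to 2.12 (median -2.87) in HF5, -3.84 to -1.95 (median -2.70) in HF20 and -3.87 to 5.85 (median -3.51) in HF75. The diet medians of Atp2a1 lay between -3.51 and -2.70, so only the upper ends of its ranges set the diets apart. Sln, a small inhibitor of that pump, ran from -8.29 to -0.16 (median -4.54) in LFC, -8.56 to 2.65 (median -4.61) in HFC, -4.96 to -1.62 (median -4.42) in HF5, -6.18 to -2.14 (median -2.97) in HF20 and -5.19 to 5.21 (median -4.50) in HF75. Casq1, the store protein of fast fibres, was saturated on the HFC array of Day 1, at least 10.45 above its median, while Casq2, its counterpart in slow fibres and heart, was at most 3.88 above its own. Ryr1, the release channel, and Cacna1s, its voltage sensor, were 10.39 and at least 8.61 (saturated) above their medians on the HF75 array of Week 3.

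Energy supply genes had a mean deviation of 9.33 on the HF75 array of Week 3, 8.35 on the HFC array of Day 1 and 6.56 on the array labelled HF5 at Week 12. Ckm, the muscle creatine kinase, ran from -7.47 to 2.81 (median -2.18) in LFC, -7.26 to 6.32 (median -3.54) in HFC, -8.16 to 5.69 (median -3.13) in HF5, -6.15 to -0.07 (median -2.76) in HF20 and -7.33 to 7.93 (median -2.58) in HF75, and it was well above background on 32 arrays. Mb, the oxygen store myoglobin, ran from -4.93 to 2.13 (median -2.71) in LFC, -6.08 to 6.09 (median -2.29) in HFC, -7.31 to 3.33 (median -2.75) in HF5, -5.49 to 1.44 (median -2.23) in HF20 and -6.87 to 7.83 (median -1.48) in HF75. Both were lowest in HF5, HF20 and HF75 at Week 6 and highest where Myh4 was highest. Of the glycolytic and purine enzymes, Pygm (glycogen phosphorylase) was 8.75 and Ampd1 (AMP deaminase) 10.93 above its median on the HF75 array of Week 3, where Pgam2 (phosphoglycerate mutase) and Eno3 (muscle enolase) were saturated, at least 8.98 and 6.41 above. On the array labelled HF5 at Week 12 Pygm, Ampd1 and Pgam2 were 5.31, 7.39 and 6.96 above, and Eno3 was saturated at 5.53 or more. Over all arrays the calcium and energy groups ran together with r = 0.988 (rho = 0.960) between their mean deviations over 39 arrays, 0.977 without the HF75 array of Week 3 and the HFC array of Day 1. These r are descriptions: each pair of means comes from the same arrays.

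**Figure D2:**
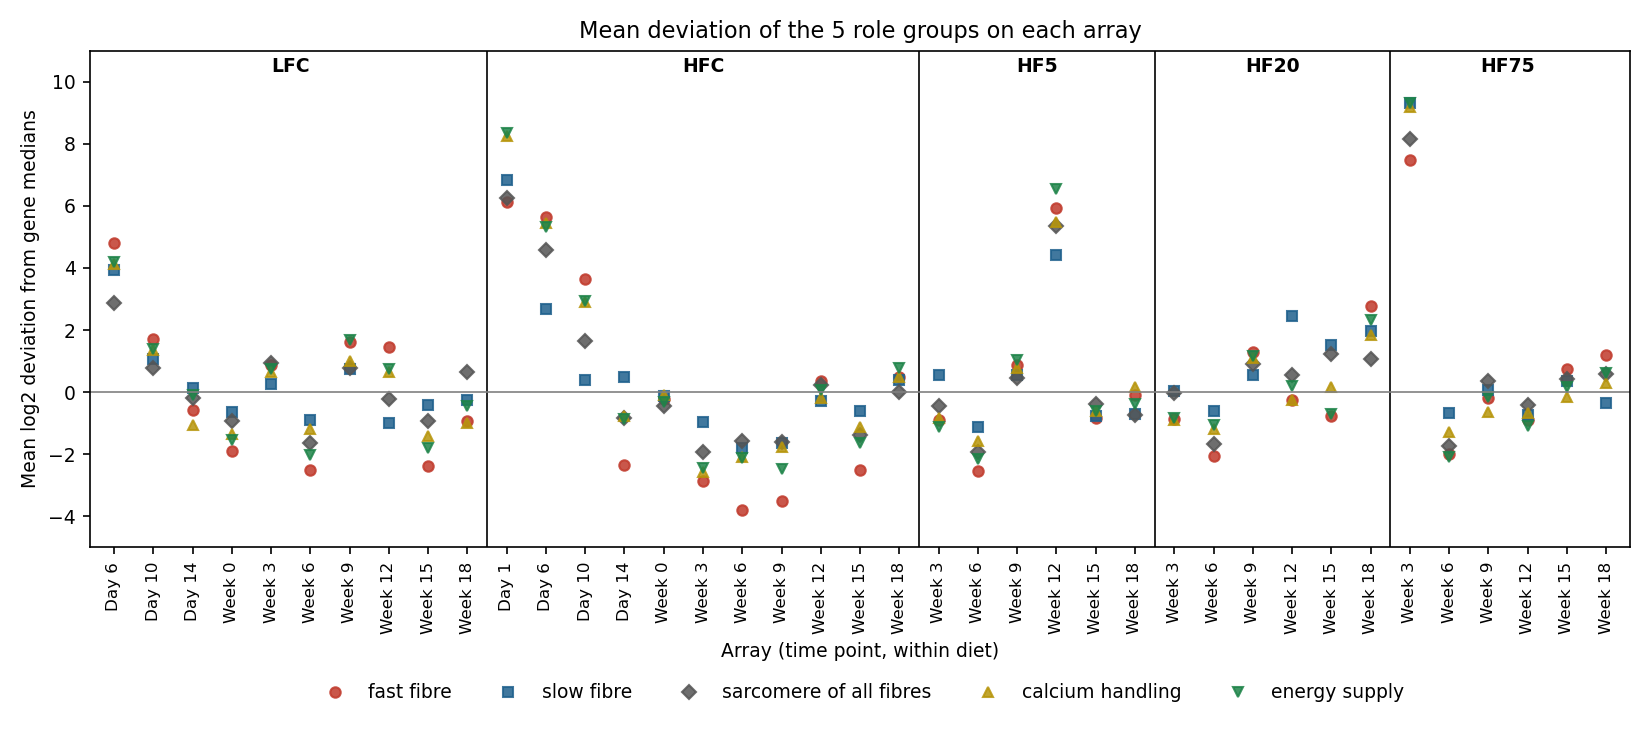
Mean log2 deviation from the gene medians (y axis) of the fast, slow, sarcomere, calcium and energy members on each array (x axis, by time point within diet), 1 symbol per group. All 5 symbols lie above 4 on the HF75 array of Week 3, the HFC array of Day 1 and the array labelled HF5 at Week 12, whereas on the HFC array of Day 10 the fast symbol (3.64) lies apart from the slow one (0.39).

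The balance of fast and slow members differed between the arrays. Fast and slow members were both high on the HF75 array of Week 3 (mean deviation 7.46 fast and 9.33 slow), on the HFC array of Day 1 (6.12 and 6.84), on the array labelled HF5 at Week 12 (5.94 and 4.43) and on the LFC array of Day 6 (4.82 and 3.95). On the HFC array of Day 6 the fast members (5.63) stood above the slow ones (2.66), and on that of Day 10 the fast members were at 3.64 and the slow ones at 0.39. The array labelled HF20 at Week 12 was the other way round, with the slow members at 2.44 and the fast ones at -0.26, and so was the HF20 array of Week 15 (1.52 for the 3 slow members with a level, and -0.77). The latter array stood apart, with 4936 outlier spots against at most 474 on any other and 87.8% of spots well above background. Lists of other tissues were high on it too (skin 2.09, epithelium 2.07, liver 2.26). Fast minus slow was lowest on the HFC array of Day 14, at -2.84 against -2.69 on the array labelled HF20 at Week 12. There the fast members were at -2.36, the slow ones at 0.49 and the liver list at 8.56. Across the 39 arrays the fast and slow means ran together with r = 0.840 and rho = 0.755. Without the HF75 array of Week 3 and the HFC array of Day 1 the r was 0.797, and within diets it lay between 0.536 and 0.956.

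**Figure D3:**
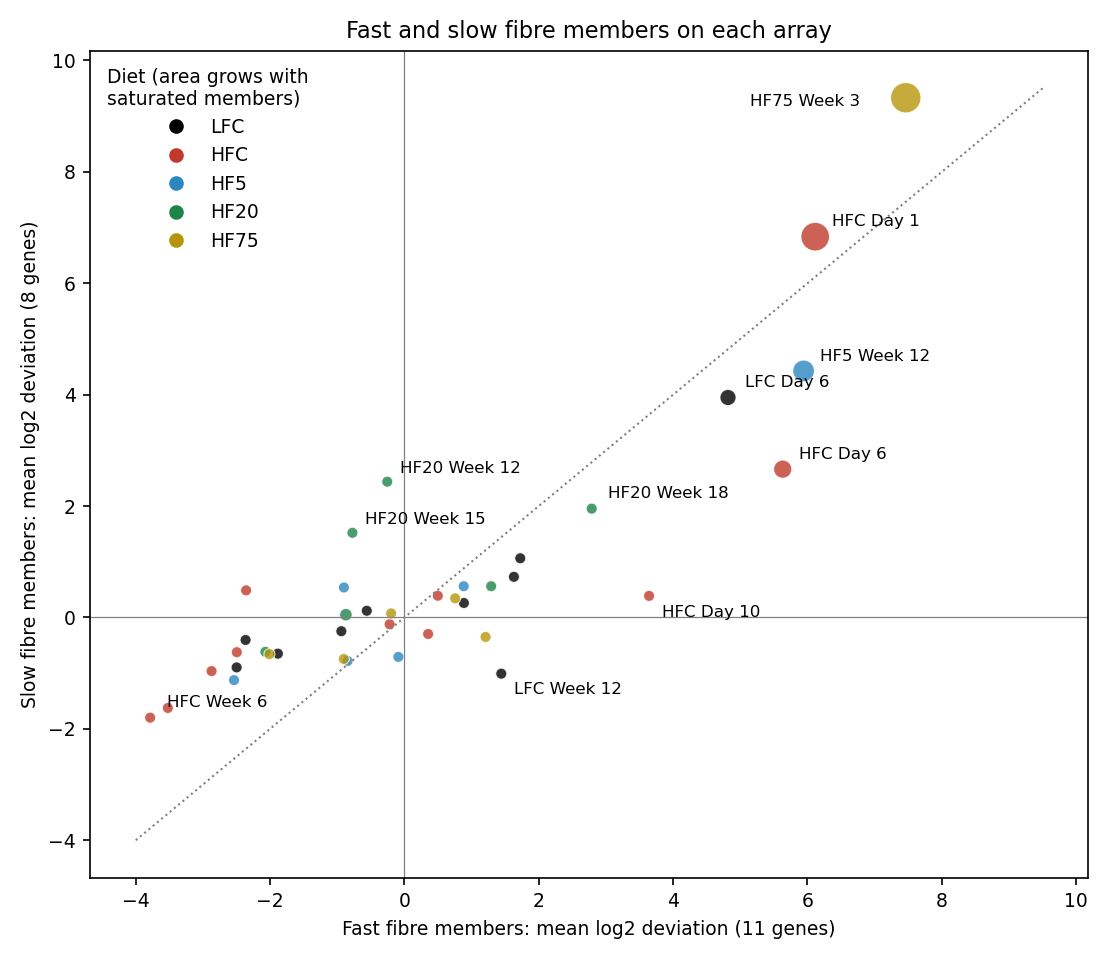
Mean log2 deviation of the 11 fast (x axis) and the 8 slow members (y axis) on each of 39 arrays, coloured by diet, with the area of a point growing with the number of saturated members and the dotted line marking equal values. The HFC arrays of Day 6 and Day 10 lie to the right of the line and the arrays labelled HF20 at Week 12 and Week 15 above it, while most arrays lie near the centre.

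The heavy chains differed between these arrays. On the HFC array of Day 6 Myh1 was 6.52, Myh4 6.31, Myh2 5.36 and Myh7 2.65 above its median. The LFC array of the same day had 5.37, 6.32, 4.52 and 7.41, and on both arrays Myh4 was saturated. On the HFC array of Day 10 Myh4 was 5.91 and Myh1 2.42 above its median while Myh7 was 1.29 below. Myh4 alone was high on the LFC array of Week 12, 5.04 above its median, where Myh1 and Myh2 were 2.29 and 2.09 below theirs. On the array labelled HF20 at Week 12 it was Myh7 that was 3.87 above and the 3 fast chains that were 0.68 to 1.07 below. The HF20 array of Week 18 had Myh4 at 3.81, Myh7 at 2.96 and Myh1 and Myh2 at 0.96 and 0.53.

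**Figure D4:**
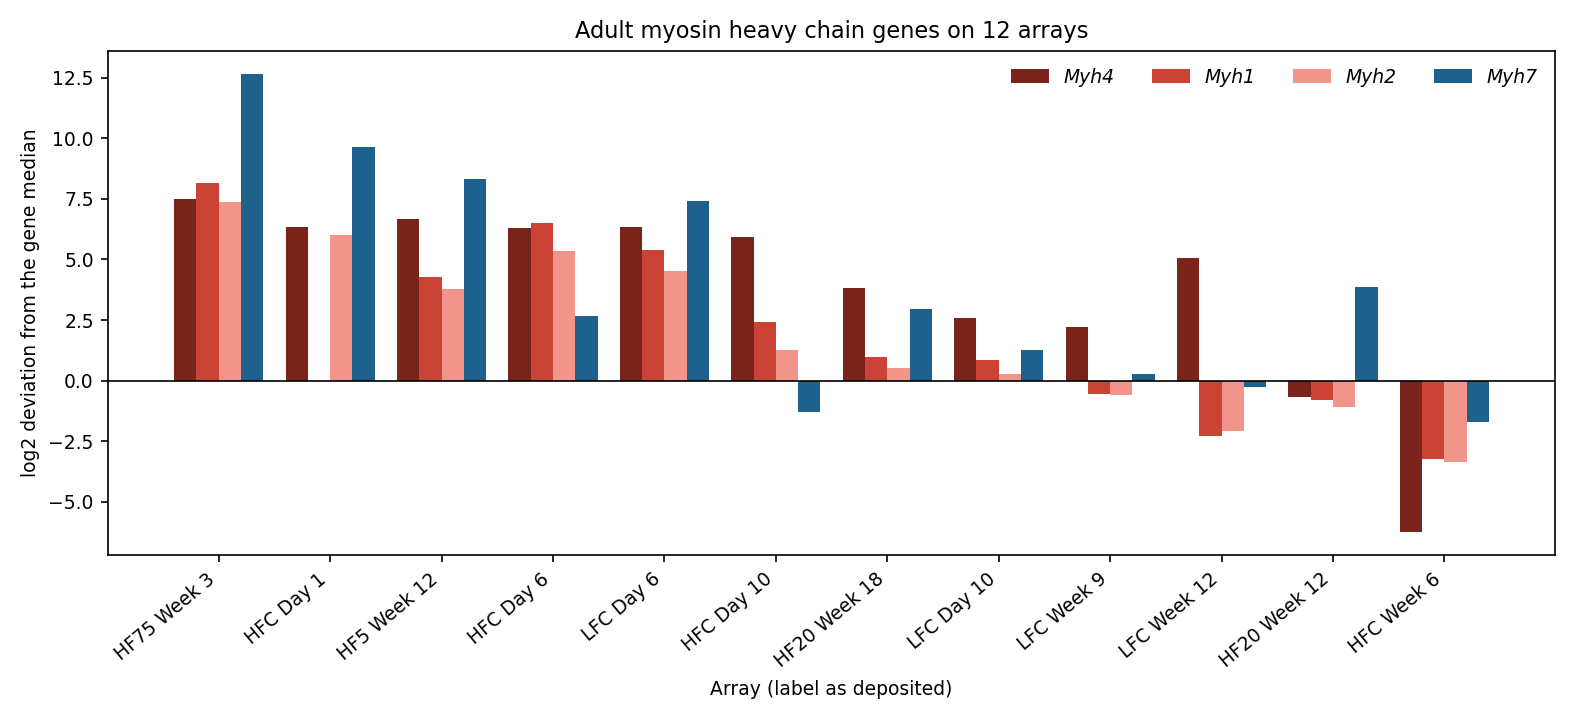
Log2 deviation from the gene's median (y axis) of the fast heavy chain genes Myh4, Myh1 and Myh2 and of the slow gene Myh7 on 12 arrays (x axis), bars from 0, with no value for Myh1 on the HFC array of Day 1. On the HF75 array of Week 3 all 4 genes were saturated and their bars are lower bounds (12.66 for Myh7), and Myh7 is the only bar above 0 on the array labelled HF20 at Week 12 (3.87).

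Proteins that exist in a fast and a slow form were also read as pairs. All but the Casq pair are made of the fast and slow members above, so these are the same levels read pair by pair. In 8 such pairs (Tnnc2 and Tnnc1, Tnni2 and Tnni1, Tnnt3 and Tnnt1, Mylpf and Myl2, Myl1 and Myl3, Mybpc2 and Mybpc1, Myoz1 and Myoz2, Casq1 and Casq2) the median of fast minus slow deviation was 3.52 on the HFC array of Day 6, with the fast gene ahead in 7 pairs, and 3.29 on the HFC array of Day 10, with all 8 ahead (2.58 over the 6 pairs with both genes well above background). It was 2.93 on the array labelled HF5 at Week 12 (7 pairs), 2.65 on the LFC array of Week 12 (7 pairs, and 1.32 with 3 of 4 ahead where both genes were well above background) and 1.59 on the LFC array of Day 6 (6 pairs). The scanner's limit held some of these medians down, since 4 of the 8 fast forms were saturated on the HFC array of Day 6, 3 on the LFC array of Day 6 and 6 on the array labelled HF5 at Week 12, with 0 slow forms. On the HFC array of Day 1 the median was -0.59 with 3 fast genes ahead, and on the HF75 array of Week 3 it was -1.32 with 3 ahead. On each of these 2 arrays 7 of the 8 fast forms were saturated (on the second all but Casq1) against 1 slow form, so most of these differences are lower bounds and the median and the count of fast genes ahead are lower bounds too. On the array labelled HF20 at Week 12 the slow form was ahead in all 6 pairs in which both genes were well above background (median -2.17), and its slow mean was 2.44. The slow form was ahead in every such pair on 8 other arrays too, among them the HFC array of Day 14 (7 pairs, median -3.28). For some pairs this measure is one-sided. The slow forms Tnnc1, Tnni1, Myl2, Mybpc1 and Myoz2 were well above background on 17 to 27 arrays. Their fast partners were so on 34 to 39 arrays and could fall further. This does not hold for Tnnt1 and Myl3, which passed on all 39 arrays, or for Casq2 (36 arrays, against 28 for Casq1).

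The genes most like the members were picked for that likeness and are a description. Over the 39 arrays the genes outside the set most like its mean were Cox6a2, the muscle form of a cytochrome oxidase subunit (r = 0.974), Ckmt2, the mitochondrial creatine kinase (0.972), and Myot, the Z-disc protein myotilin (0.972). Klhl31 (0.970), Smpx (0.969), Gm14492 (0.968), Cmya3 (0.967), Rpl3l (0.965), Itgb1bp2 (0.964) and Lrrc30 (0.964) followed. Without the HF75 array of Week 3 and the HFC array of Day 1 the r of these 10 was 0.929 to 0.966. Of 22657 genes outside the set 58 had r above 0.9 with the mean of the members, and 21 of the 39 members had it with the mean of the others. Among the members Myoz1 was closest to the others (0.974), and Casq2 (0.335) and the brightest Ttn probe (0.431) were farthest, at -0.117 and 0.158 without those 2 arrays.

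Most genes of 3 further muscle lists were high on the HF75 array of Week 3. On the HF75 array of Week 3, 20 of 22 other sarcomere genes, 16 of 19 other genes of calcium and excitation and 13 of 13 other muscle energy genes were more than 2 above their medians, as were 18 of 22, 9 of 19 and 12 of 13 on the array labelled HF5 at Week 12. Some went the other way: the deviation of Tpm3 was -2.91 on the HF75 array of Week 3, and that of Trim55 was -5.25, -4.94 and -5.51 on the HFC arrays of Day 1 and Day 6 and the LFC array of Day 6. Trim55 was saturated on many of the other arrays, so its median may be held down by the scanner's limit and its distance below that median may be larger. Of the developmental myosins and myogenic factors, Myog (myogenin) was 8.69 and Myf6 9.32 above its median on the HF75 array of Week 3, and 9.43 and 8.56 on the HFC array of Day 1. Myh3, the embryonic heavy chain, was instead highest on the LFC array of Week 18 and the HF20 array of Week 15, 7.62 and 7.47 above its median, where the fast members were at -0.94 and -0.77. Heart genes did not follow as a list, with a mean of 1.09 on the HF75 array of Week 3, where Myh6 was 9.91 above its median and Nppa, the atrial peptide, 0.13. The 9 smooth muscle genes had a mean of -1.02 there and of -1.65 on the LFC array of Day 6.

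Genes of heat-producing fat were high on some of these arrays and not on others. The mean deviation was 3.99 on the HFC array of Day 6 (10 genes with a level) and 3.51 on the LFC array of Day 6 (11 genes), with Ucp1, the uncoupling protein of brown and beige fat, at least 7.96 (saturated) and 7.54 above its median. It was 4.16 on the array labelled HF20 at Week 12, with Ucp1 at 7.99, where slow but not fast members were high, and -0.45 on the HF20 array of Week 15, where slow members were also above fast ones. On the HF75 array of Week 3 the mean was 1.87 and Ucp1 was 1.88 below its median, while Cox7a1 and Cox8b, oxidase subunits used by muscle as well as by brown fat, were at least 6.07 (saturated) and 5.94 above. Across the 39 arrays the r of this list was 0.522 with the slow members and 0.676 with the fast ones (0.499 and 0.708 without the array labelled HF20 at Week 12 and the HFC array of Day 6). Within diets it lay between 0.587 and 0.846 with the slow members and between 0.169 and 0.882 with the fast ones. The part of heat-producing cells in the member levels was not tested. The macrophage genes had means of -3.19 and -2.66 on the HF75 array of Week 3 and the HFC array of Day 1, with 6 and 5 of 7 genes more than 2 below their medians, and of -1.48 on the array labelled HF5 at Week 12, -0.82 on the HFC array of Day 6 and -0.15 on the LFC array of Day 6. The 13 adipocyte genes had means of -0.20 on the HF75 array of Week 3 and -0.98 on the HFC array of Day 1. Their means were 1.50 on the array labelled HF5 at Week 12, 1.49 on the HFC array of Day 6 and 1.73 on the LFC array of Day 6. In bulk tissue, fewer cells of a type and less RNA per cell cannot be told apart, and the levels are relative within an array.

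In the comparison of late with early arrays of LFC and HFC 38 of the 39 members had a difference below 0, but no member passed the adjusted threshold of 0.05. It set 12 arrays of Week 3 to Week 18 against 8 arrays of Day 6 to Week 0, with the diet as a term in limma. Of all 20602 genes tested, 0.209% had an adjusted p under 0.05. At an unadjusted p under 0.05, 21 of the 38 members tested were lower late (55.3%) and 0 higher, beside 6.76% of all genes lower and 6.23% higher, and the median log2 difference over the members was -2.14 against -0.02 over all genes. These counts treat the LFC and HFC arrays of a time point as independent. With the time point as a random block (correlation 0.27) 12 members were lower at an unadjusted p under 0.05 and 1 of all genes passed the adjusted threshold. Mybpc1, the slow myosin binding protein C, had the smallest p with a log2 difference of -3.26 (SE 0.75, adjusted p = 0.0718 in limma), followed by Casq1 (-3.04, SE 0.82, adjusted p = 0.113) and Atp2a1 (-1.87, SE 0.56, adjusted p = 0.164). The Day 6 arrays carried much of this: without Day 6 the median was -0.99 with 5 members at an unadjusted p under 0.05, without Week 0 it was -2.88 with 35, with array quality weights it was -1.36 with 10, and with normexp background correction -1.36 with 21. The count was 11 to 13 without Day 10, Week 3, Week 6 or Week 15, without any 1 of the LFC arrays of Day 6, Day 10, Week 6 and Week 15, and without any 1 of the HFC arrays of Day 6 (median -1.40), Day 10, Week 3, Week 6, Week 9 and Week 15, while it was 32 without the LFC array of Week 0. Mybpc1 passed with 1 array left out, the HFC array of Day 14 (adjusted p = 0.0474). Of the other lists, 8 of 16 other sarcomere genes (1 higher) and 8 of 15 other calcium genes were lower late at an unadjusted p under 0.05, and among the latter Hrc, a calcium binding protein of the sarcoplasmic reticulum, passed the adjusted threshold (-2.38, SE 0.44, adjusted p = 0.0310 in limma without that block). At an unadjusted p under 0.05, 4 of 10 genes of heat-producing fat (median -1.61) and 3 of 4 liver genes (median -2.41) were lower as well. Of the 13 adipocyte genes 0 were lower (median -0.54), and of the 7 macrophage genes 0 were lower and 2 higher (median 0.65). The part of these lists in the member differences was not tested.

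The high fat diet itself was compared with the low fat diet at the 10 time points that have both. No gene passed the adjusted threshold (0% of 19873), and 0 of 38 members tested had an unadjusted p under 0.05, beside 1.96% of genes higher and 3.9% lower. The median over the members was -0.46 against -0.04 over all genes, and it changed sign with array quality weights (0.23). By time point the median HFC minus LFC difference of the members was 1.15 at Day 6, 1.58 at Day 10, -0.79 at Day 14 and 1.01 at Week 0. It was -2.96 at Week 3, -0.73 at Week 6, -3.17 at Week 9, -0.95 at Week 12, 0.00 at Week 15 and 1.23 at Week 18. The median was thus above 0 at 3 of the 4 time points up to Week 0, below 0 at the 4 from Week 3 to Week 12, and 0.00 and 1.23 at the last 2. The study's methods, written for its liver data, count the weeks from Day 14, which would make Day 14 and Week 0 the same time; the labels used here do not say so. The 2 had medians of opposite sign, and in limma with both in 1 block the median was again -0.46 with 0 members at an unadjusted p under 0.05. Myh7 (-1.14, SE 0.58, adjusted p = 0.803), Tnni1 (-0.86, SE 0.54, adjusted p = 0.808) and Ryr1 (0.84, SE 0.54, adjusted p = 0.810) had the smallest p. Without Week 3 the median was -0.14, without Week 9 it was -0.16, and with the scan day as block it was -0.72, and the count of members at an unadjusted p under 0.05 was 0 to 2 whichever time point was left out.

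In the fit of the 30 arrays of Week 3 to Week 18 the same 2 diets gave a median of -1.16 (all genes -0.06). No gene of 21087 passed (0%), 0 of 39 members had an unadjusted p under 0.05, and the shares of all genes were 2.26% higher and 2.8% lower. Myh4 (-3.01, SE 1.51), Tnnc2 (-1.88, SE 1.13) and Tnni2 (-2.01, SE 1.21) had the smallest p, each with an adjusted p of 0.850. The value rested on Week 3 and Week 9: without the HFC array of Week 3 the median was -0.55, without Week 3 it was -0.73 and without Week 9 it was -0.70. It was -0.51 where the slide entered as a random term and -0.68 where the scan day was the block.

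The 3 KAL-1 groups were each set against the same 6 HFC arrays, so their differences share that group, whose arrays of Week 3, Week 6 and Week 9 were the lowest of all 39. For HF75 the median over the members was 2.54 against 0.00 over all genes and all 39 were positive, but no gene passed the adjusted threshold (0%). At an unadjusted p under 0.05, 14 of 39 members were higher (35.9%), beside 1.93% of all genes higher and 3.1% lower. The median over 7 macrophage genes was -0.81 with 3 lower at an unadjusted p under 0.05, that over 13 adipocyte genes was -0.04 with 0, and their part in the member difference was not tested. Myh4 (4.41, SE 1.51), Tcap, the titin cap (3.49, SE 1.24), and Tnnt3 (4.13, SE 1.51, 1 array without a level) had the smallest p, with an adjusted p of 0.866 each in limma. The HF75 array of Week 3 decided the size. Its members were 10.92 above those of HFC at Week 3 in the median, while the median difference was 0.74 at Week 6, 2.05 at Week 9, -0.88 at Week 12, 1.06 at Week 15 and 0.05 at Week 18. Without that array the median was 1.00 and 1 member had an unadjusted p under 0.05, without Week 3 it was 0.80, with array quality weights 0.38 with 0 members, and 1.03 where the slide entered as a random term. The count was 26 or 28 without Week 12 or its HF75 array, and 4 to 9 without Week 6, Week 9 or Week 15, the HFC arrays of Week 3 or Week 9, or the HF75 array of Week 15.

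For HF5 the median was 1.78 with 38 of 39 members positive, and 6 of 39 were higher at an unadjusted p under 0.05 (15.4%), beside 0.711% of all genes higher, 0.65% lower and 0% past the adjusted threshold. The smallest p belonged to Myh4 (3.54, SE 1.51), Tnnt3 (3.47, SE 1.51, 1 array without a level) and Mybpc2 (3.17, SE 1.46), with an adjusted p of 1.00 each. The median difference by week was 1.75 at Week 3, 0.68 at Week 6, 2.82 at Week 9, 5.84 at Week 12, 0.68 at Week 15 and -0.85 at Week 18. Week 12 therefore stood apart. With its 2 labels exchanged the median was 0.88 with 0 members at an unadjusted p under 0.05, without the array labelled HF5 at Week 12 it was 0.79 with 0, without Week 12 1.06 with 1 and with array quality weights 0.95 with 3. The count was 15 without the HF75 array of Week 3, 12 without Week 3 and 11 without the HF5 array of Week 3. It was 0 to 3 without Week 6, Week 9 or Week 15, the HF5 arrays of Week 9 or Week 15, or the HFC arrays of Week 3 or Week 9.

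For HF20 the median was 1.41 with all 39 members positive, and 5 of 39 were higher at an unadjusted p under 0.05 (12.8%), beside 2.97% of all genes higher, 1.25% lower and 0% past the adjusted threshold. Tcap (2.99, SE 1.24), Mybpc1 (2.55, SE 1.14) and Myh4 (3.24, SE 1.51) had the smallest p, with an adjusted p of 0.997 each. The 10 lymphocyte genes had a median of 1.44 with 2 higher and the 13 adipocyte genes -0.55 with 2 lower at an unadjusted p under 0.05, which was not tested as a part of the member difference. By week the median difference was 1.73 at Week 3, 0.68 at Week 6, 3.18 at Week 9, 0.13 at Week 12, 1.55 at Week 15 (30 members with a level) and 1.83 at Week 18. With the labels of Week 12 exchanged it was 2.43 with 13 members at an unadjusted p under 0.05, so the order of HF5 and HF20 depends on which label is right. Without the HFC array of Week 3 it was 0.82 with 0 members, and without the HF20 array of Week 18 it was 1.25 with 0. The count was 8 to 12 without Week 3, Week 12, the HF75 or HF20 array of Week 3 or the HFC array of Week 18, and 0 to 3 without Week 6, Week 9, Week 15 or Week 18, the HF20 arrays of Week 6, Week 9 or Week 15, or the HFC arrays of Week 6, Week 9 or Week 15. With normexp background correction, under which 7872 genes of the array were called, Tnni1 and Casq2 passed.

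**Figure D5:**
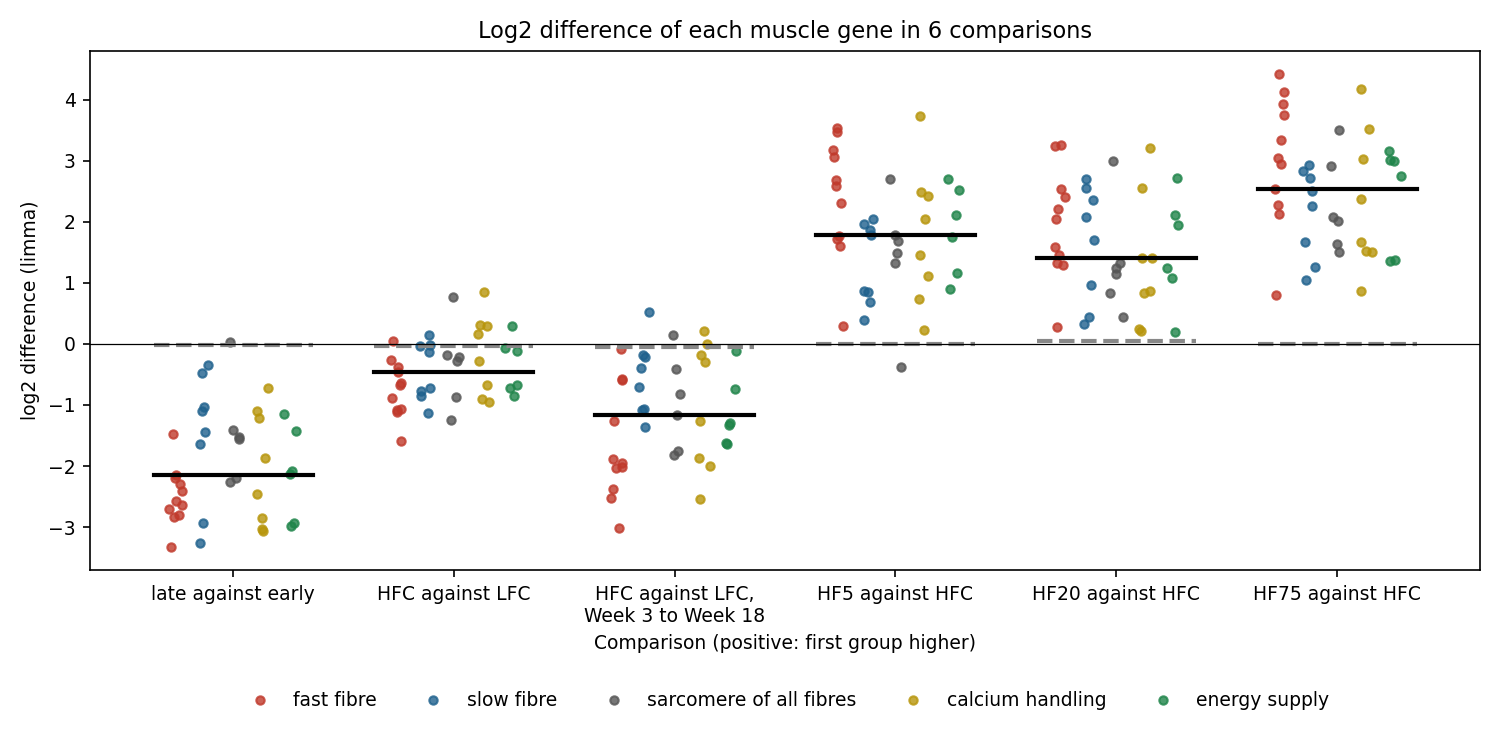
Log2 difference from limma (y axis) of each of the 39 members, 1 point each and coloured by role group, in 6 comparisons (x axis); the black bar is the median of the members and the grey dashed bar the median of all genes. In late against early 38 members lie below 0 (median -2.14), and against HFC 38 lie above 0 for HF5 and all 39 for HF20 and HF75 (medians 1.78, 1.41 and 2.54), with no member past the adjusted threshold in any of the 6.

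Over Week 3 to Week 18, 0 of the 39 members had an unadjusted p under 0.05 for a change per week in limma, and the median slope was -0.01 per week against 0.01 over all genes. Of 21087 genes 0.0948% passed the adjusted threshold (0 genes with the time point as a random block), with 9.24% higher and 6.28% lower at an unadjusted p under 0.05. Casq2 (-0.08 per week, SE 0.05, adjusted p = 0.420), Tnnt1 (-0.08, SE 0.06, adjusted p = 0.512) and Tnnc2 (0.12, SE 0.09, adjusted p = 0.513) had the smallest p. Without the HF75 array of Week 3 the median slope was 0.10 with 9 members at an unadjusted p under 0.05. By diet, the mean deviation of the members ranged from -1.70 to 4.10 in LFC, -2.43 to 7.09 in HFC, -1.90 to 5.54 in HF5, -1.37 to 2.08 in HF20 and -1.56 to 8.59 in HF75, with medians of 0.01, -0.23, -0.43, 0.27 and 0.10. With the labels of Week 12 exchanged it ran from -1.90 to 0.75 (median -0.43) in HF5 and from -1.37 to 5.54 (median 0.54) in HF20. The ranges of all 5 diets overlapped.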

How the data were processed

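RNA of subcutaneous adipose tissue was labelled with Cy3 and hybridised to 39 Agilent 1-colour arrays, 1 per diet and time point. The deposited files hold the scanner output of each array: intensity per spot (processed signal, mean signal and background), with 0 or 1 flags for saturation, for outliers and for spots well above background. Per the file headers they were made with Feature Extraction 10.5.1.1, whereas the submitters' processing notes name version 9.1. A series table deposited by the authors holds log2 ratios, in which the LFC sample of a time point is the denominator and the 10 LFC columns are therefore 0. It was used only as an alternative and to check labels.

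Levels were log2 of the processed intensity minus log2 of the 75th percentile of the array, over the 43803 spots that are no controls. Outlier spots were left out, spots of a probe were averaged (40628 probes), and the probe with the highest mean stood for a gene. The members, role groups and 15 further gene lists were chosen with earlier results of these data known. Values by diet are given for 16 members and for the 2 with the largest SD in each role group; for each comparison the 3 members with the smallest p are named, and outside the set the 10 genes most like its mean.

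Tests were limma 3.58.1 (R 4.3.3), two-sided, with Benjamini-Hochberg adjustment over all genes tested, a threshold of 0.05 and the time point as a block (the diet as a term for late against early and for change per week). A gene was tested if well above background on at least 10 (HFC against LFC), 6 (Week 3 to Week 18) or 8 arrays (late against early). Myl2 missed this filter in HFC against LFC and in late against early. The 36 slides and 14 scan days were tried as blocks; each scan day lay within 1 time point. The scripts were tested on simulated data. Alternatives are listed in the closing section.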

Additional observations from a re-analysis of the deposited data

Results flagged for a closer look

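In groups of 4 to 10 arrays, each value below lay farther from the next array of its diet than Dixon's limit allows. With 107 tests made over LFC, HF5, HF20 and HF75 (HFC, with 11 arrays, was not tested), chance alone flags about 1 in 20, and the members are read from the same arrays, so the 37 flags are not independent. As labelled, all values fell on 3 arrays (19, 10 and 8 values), none of them HF20, and no cause was tested. With the 2 labels of Week 12 exchanged, the 10 values of the array labelled HF5 at Week 12 come to lie in HF20, where 1 of them (Atp2a1, 2.12) passed the limit, and in HF5 the limit was passed by Tnnc1 (-2.31) on the array labelled HF20 at Week 12 and by Myh1 (1.51) at Week 3.

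The HF75 array of Week 3 stood apart for the mean deviation of the 39 members (8.59) and of the fast (7.46), slow (9.33), sarcomere (8.16), calcium (9.18) and energy members (9.33). It did so too for the levels of Myh1 (7.77), Myh2 (7.46), Myh7 (7.58), Acta1 (7.67), Atp2a1 (5.85), Sln (5.21), Tnnc1 (3.75), Tnni1 (2.59), Tnnt1 (6.09), Myl2 (5.63), Actn2 (4.91), Neb (7.50) and Trdn (7.35).

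The array labelled HF5 at Week 12 stood apart for the mean deviation of the 39 members (5.54) and of the slow (4.43), sarcomere (5.35), calcium (5.49) and energy members (6.56), and for the levels of Myh7 (3.25), Acta1 (6.67), Atp2a1 (2.12), Tnnc1 (-1.79) and Neb (5.33).

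The LFC array of Day 6 stood apart for the mean deviation of the 39 members (4.10), of the slow (3.95) and of the calcium members (4.12), and for the levels of Myh1 (5.01), Myh2 (4.60), Myh7 (2.32), Atp2a1 (0.17) and Actn2 (0.59).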

How the results depend on the processing

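No member was called in any of the 7 comparisons as tested. Among the alternatives, members were called in 2 settings: with normexp background correction 2 members in HF20 against HFC, and in late against early between 0 and 1 members with single arrays or time points left out (1 without the HFC array of Day 14). The SD of the median difference between time points was larger than the median itself for HFC against LFC (1.70 beside -0.46), HFC against LFC over Week 3 to Week 18 (1.71 beside -1.16), HF5 (2.32 beside 1.78), HF75 (4.33 beside 2.54) and, as an SD between diets, the change per week (0.224 beside -0.01), so that lying within it says nothing of stability; HF20 from the authors' ratios (2.56) lay outside it. The median took the opposite sign in 1 of 43 alternatives for HFC against LFC and in 5 of 48 for the change per week, and in 0 for the other 5 comparisons. It was over 1.5 times larger or smaller in 8 of 43 for HFC against LFC, 5 of 51 over Week 3 to Week 18, 6 of 51 for HF5, 3 of 51 for HF20, 4 of 51 for HF75, 27 of 48 for the change per week and 4 of 39 for late against early. Over all alternatives HF75 ran from 0.38 to 3.25. Leaving out 1 time point or array gave medians of -0.62 to -0.14 for HFC against LFC, -1.54 to -0.55 for Week 3 to Week 18, 0.79 to 2.37 for HF5, 0.82 to 1.82 for HF20, 0.80 to 3.25 for HF75, -0.08 to 0.11 for the change per week and -2.91 to -0.99 for late against early. From the authors' ratios HF5 against HFC had a median of 0.89. These ratios carry the Week 12 exchange, since their HF5 and HF20 columns match the arrays of the other label. Their medians for HF5 (0.89) and HF20 (2.56) therefore differ in labels as well as in processing. At an unadjusted p under 0.05, the processing alternatives and the Week 12 relabelling gave 0 to 4 members for HFC against LFC (0 as tested), 0 to 7 for HF5 (6), 0 to 14 for HF20 (5), 0 to 19 for HF75 (14), 0 to 5 for the change per week (0) and 9 to 23 for late against early (21). An unmoderated 2-group comparison over the arrays of a diet gave 11 members for HF20 and 0 for the other diet comparisons, and 0 in each after Benjamini-Hochberg adjustment. Over all genes these alternatives called 0 to 489 for the change per week (20 as tested), 1 to 274 for late against early (43) and 0 to 7872 for HF20 against HFC (0), the last under normexp. Under normexp, quantile normalization, outlier spots kept and the mean of all probes, the 5 arrays with the highest mean deviation of the members were the same 5. The Week 12 exchange, the omission of single arrays, Day 14 and Week 0 as 1 time point, the time point as a random block and the restriction of pairs to genes well above background were chosen after seeing the data. The slide as a random block was not run for HFC against LFC and late against early, nor the scan day for change per week and late against early. The diet comparisons were paired by time point through the block. Without it the medians were the same, and the members at an unadjusted p under 0.05 numbered 0 for HFC against LFC, 0 for HF5, 3 for HF20 and 9 for HF75. Saturation limits the high levels, and background the low ones.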
